A study of Mus musculus with 35 samples.

Results

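Tissue factor, the main thrombin receptor and the inhibitors, cofactors and proteases around them were followed as 9 genes: F3, F2r, Tfpi, Tfpi2, Thbd, Procr, Plat, Plau and Plaur. They were taken by symbol from the 55487 genes in each of 4 deposited count tables, and all 9 were found in every table. The set was chosen by its values in untreated fibroblasts, where F3 was the member with the highest fold with both siRNAs, so those values are given as a description with no test. RNA-Seq had been run on primary mouse cardiac fibroblasts (CFs) after knockdown of IAMP, a micropeptide encoded by 4930523C07Rik, and on hearts of IAMP-KO mice. CFs were left untreated, stimulated with the cytokine IL-17 or stimulated with TGF-β, with a table for each, and every table has 3 libraries of a Scrambled control siRNA, 3 of siR-1 and 3 of siR-2, which are different siRNAs to IAMP. The CFs came from 8-week-old mice, and the labels give 24 h of siRNA before 24 h of IL-17 and no time for TGF-β. The hearts were from C57BL/6 mice aged 8 weeks with no injury, 4 HET controls, which carry 1 disrupted allele, and 4 KO mice, all of 1 CRISPR line with a frameshift in the IAMP reading frame. The comparisons ask whether loss of IAMP goes with a change in gene expression in CFs, with and without a stimulus, and in the heart. Nothing in the labels says that the 3 CF libraries of a group came from separate cultures, so p values measure the spread between these libraries.

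Tissue factor, the product of F3, is a membrane protein that binds factor VIIa and starts the extrinsic clotting pathway, which ends with thrombin and fibrin. TFPI blocks this first step, while thrombomodulin (Thbd) and the endothelial protein C receptor (Procr) turn thrombin from a clotting enzyme into an activator of protein C, a natural anticoagulant. Thrombin also signals to cells through protease-activated receptor PAR1 (F2r), which fibroblasts carry. Fibrin is removed by plasmin, which the activators tPA (Plat) and uPA (Plau) make from plasminogen, with uPAR (Plaur) as the cell surface anchor of uPA. Tissue factor is known to be abundant in heart muscle and in cells around vessels, and is kept apart from blood until a vessel is injured.

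The sequence before the F3 start site is shown because F3 was the member with the highest folds. It covers the 250 bases at chr3:121723287-121723536, plus strand, of GRCm38.p6 in RefSeq, and capitals mark 2 matches to the AP-1 motif TGANTCA, at bases -146 to -140 and -135 to -129 from the start site.
F3: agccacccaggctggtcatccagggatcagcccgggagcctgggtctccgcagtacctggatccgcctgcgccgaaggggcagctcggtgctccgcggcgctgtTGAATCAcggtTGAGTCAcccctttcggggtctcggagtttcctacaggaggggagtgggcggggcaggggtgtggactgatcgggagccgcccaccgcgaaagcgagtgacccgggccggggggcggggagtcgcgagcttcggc
The same motif was in a RefSeq promoter of 4 other members, and 30 bases around it are shown for each to compare the flanks, with the match again in capitals. The Procr window lies at chr2:155751051-155751080 (plus), the Plaur window at chr7:24462402-24462431 (plus), the F2r window at chr13:95618653-95618682 (minus) and the Tfpi2 window at chr6:3968435-3968464 (minus).
Procr: gccccaccccccTGACTCAgcggcgaccta
Plaur: aacccctggagcTGACTCActctttagcaa
F2r: accccgaggggcTGAGTCActcccaggctt
Tfpi2: ctgcctaaggcgTGAATCAgccacgttatg
F3 was the only one of the 6 members with an entry that held 2 matches. Each RefSeq window runs from 250 bases before to 50 after a start site, and 6 members had 9 such windows, with 2 for Tfpi and 3 for Tfpi2. TGANTCA was in 5 of these 9 windows and in 7.81% of all 32851 windows of that length, searched on both strands. The SP1 motif GGGCGG was in 6 of 9 and in 35.7% of all, and the EGR1 motif GCGGGGGCG in 2 of 9 and in 2.91%. The HIF-1 cores ACGTG and GCGTG were each in 2 of 9, with 19.6% and 32.4% of all, and neither was in the F3 window. The NF-κB motif GGGNNNTCC was in 1 of 9, that of Procr, and in 17.8% of all, and a looser form of that motif in 7 of 9 and in 50.8%. Of the Tfpi2 windows, 2 overlap and share 1 site of the looser form, which is counted in both. The F3 window was 70.3% G and C, against a median of 52.7% over all windows. These matches describe letters and no binding was measured. Thbd, Plat and Plau are named only.

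By the GENCODE vM21 annotation of GRCm38, F3 (ENSMUSG00000028128) lies at chr3:121723537-121735048, plus strand, with 4 transcripts and 2527 bases of exon. F2r lies at chr13:95601803-95618487, minus strand, Tfpi at chr2:84432855-84476775, minus strand, Tfpi2 at chr6:3962595-3988919, minus strand, Thbd, a gene of 1 exon, at chr2:148404466-148408188, minus strand, and Procr at chr2:155751117-155755471, plus strand. Plat lies at chr8:22757727-22782844, plus strand, Plau at chr14:20836660-20843385, plus strand and Plaur at chr7:24462484-24475968, plus strand. None overlaps another annotated gene, and the counts cover their exons.

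A CF library held 104139670 to 119232309 estimated counts and a heart 23497027 to 23857313 counts, and levels are given in CPM, which are counts scaled to the total of each library. Each member had at least 893 estimated counts in every CF library and between 7 and 1756 counts in a heart. Among genes seen in 1 library the most frequent value was 6 in each CF table and 1 in hearts. Estimated counts of CFs and counts of hearts are therefore not on the same scale, and their totals do not compare depth. The targeted RNA, 4930523C07Rik, fell from 22.04 to 25.7 CPM to 2.52 to 3.51 (siR-1) or 1.77 to 1.89 (siR-2) in untreated CFs, and by 2.85 and 3.44 on the log2 scale under IL-17. Under TGF-β it fell by 2.23 and 2.65, which was less than under IL-17 by 0.61 (edgeR, adjusted p = 0.00326) and 0.77 (adjusted p = 0.000219). In hearts it was at 15.9 to 18.8 CPM in HET and 15.1 to 17.3 in KO, and since a frameshift need not lower the RNA this does not check the genotype. All 7 fibroblast markers were above the floor in every CF library and summed to 7785 to 14358 CPM. Under IL-17 that sum was 7785 to 7982 CPM with Scrambled, 11589.7 to 12063 (siR-1) and 13575 to 14189.8 (siR-2). The markers did not move together. From Scrambled to siR-2, mean Col3a1 went from 2794 to 8355 CPM, Dcn from 752.5 to 1483 and Pdgfra from 436.8 to 471. Col1a1 went from 3553 to 3259 CPM, Lum from 76.0 to 70.0, Dpt from 95.1 to 81.5 and Tcf21 from 177.7 to 117.4. Lum, Dpt and Tcf21 were also lower with siR-1. The part of these markers in the results below was not tested. Of the 6 cardiomyocyte markers, Tnnt2 made up nearly all of the CF signal, with a mean of 93.4 CPM in untreated Scrambled cells, 44.4 with siR-1 and 30.01 with siR-2, while Myh6 and Myl2 were at or near 0. In 5 CF libraries the 5 hepatocyte markers summed to 25.5 to 98.0 CPM, against 0.223 to 2.40 in the others. These were untreated Scrambled replicate 3, IL-17 Scrambled replicates 1 and 3, TGF-β siR-1 replicate 2 and TGF-β siR-2 replicate 3, and results that change without them are given with that value.

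Under IL-17, F3 and F2r were higher and the plasminogen activators Plau and Plat lower with both siRNAs. These differences were smaller under TGF-β, F2r with siR-2 being short of the threshold for that. The set was chosen by its values in untreated cells, but with earlier results of these data known. The stimulated libraries may therefore not be independent of that choice. Called means an adjusted p of at most 0.05 (edgeR, quasi-likelihood, Benjamini-Hochberg over all genes tested) and a fold of at least 2 in untreated CFs, hearts and comparisons of stimuli or 1.5 in siRNA comparisons under a stimulus. Under IL-17, 2 of the 9 members rose and 2 fell with siR-1, where 5.58% of all genes tested were called higher and 7.97% lower. With siR-2 it was 3 and 3, with 8.06% and 13.7% of all genes, and 2 and 2 differed upwards and downwards between siR-2 and siR-1 (6.07% and 9.62%). Under TGF-β, 3 rose and 0 fell with siR-1 (2.45% and 1.91%), 3 rose and 1 fell with siR-2 (2.07% and 5.44%), and siR-2 against siR-1 gave 1 and 1 (0.84% and 3.12%). In untreated cells, the comparison that chose the set, 2 members were past the threshold upwards and 2 downwards with siR-1 (2.15% and 2.61% of all genes) and 2 and 1 with siR-2 (3.42% and 7.23%), and nothing is read from these. Lack of overlap between 2 groups of 3 libraries was common among all genes tested, and is stated below as a description. For siR-1 against Scrambled, every siRNA library lay higher in 24.6% of genes in untreated cells, 25.9% under IL-17 and 18.4% under TGF-β. All lay lower in 24.9%, 25.9% and 18.7%. For siR-2 the higher shares were 29.1%, 29.9% and 20.8%, and the lower shares 27.8%, 28.3% and 20%.

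**Figure D1:**
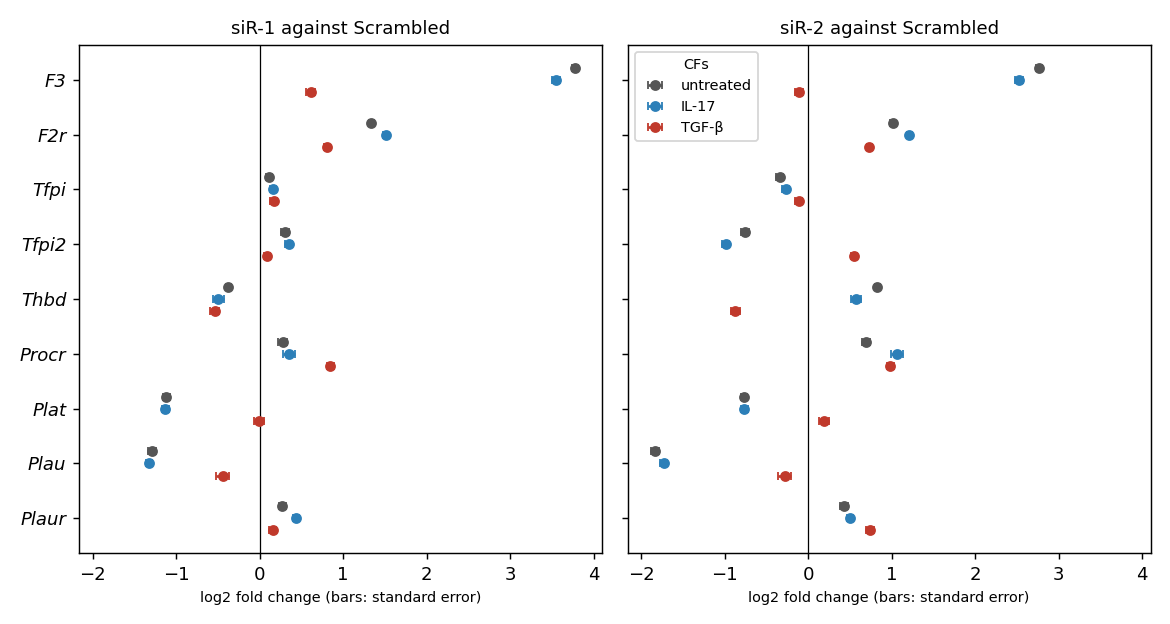
Log2 fold change of each member with siR-1 and siR-2 against Scrambled in untreated, IL-17-treated and TGF-β-treated CFs, with bars of 1 SE (n = 3 libraries per group). F3 stands at 3.55 and 2.52 under IL-17 and at 0.61 and -0.11 under TGF-β, while Plau stands at -1.32 and -1.73 under IL-17.

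F3 was low in Scrambled CFs and many times higher with either siRNA. In untreated cells it was at 31.6, 31.9 and 29.8 CPM with Scrambled, at 425, 430.2 and 427 CPM with siR-1 and at 207, 212 and 223 CPM with siR-2. The 3 groups did not overlap and siR-1 was the highest, a fold of 13.7 for siR-1 and 6.79 for siR-2, given without a test. From the top, F3 ranked 64 and 135 of 19669 genes tested by its log2 difference. Under IL-17 it was at 34.1, 30.8 and 32.1 CPM with Scrambled, at 393, 374 and 379.7 CPM with siR-1 and at 192, 198 and 176 CPM with siR-2. This was the same order, again without overlap, in libraries other than the untreated ones whose values chose the set. F3 rose by 3.55 ± 0.0451 (SE) on the log2 scale (edgeR, adjusted p = 3.96e-18) with siR-1, a fold of 11.7, and by 2.52 ± 0.0436 (edgeR, adjusted p = 5.31e-17) with siR-2, a fold of 5.75. The siR-2 level was lower than that of siR-1 by 1.03 ± 0.0404 (edgeR, adjusted p = 1.78e-12). Between the same libraries, siR-2 against siR-1, the targeted RNA differed by -0.58 (edgeR, adjusted p = 0.000306).

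**Figure D2:**
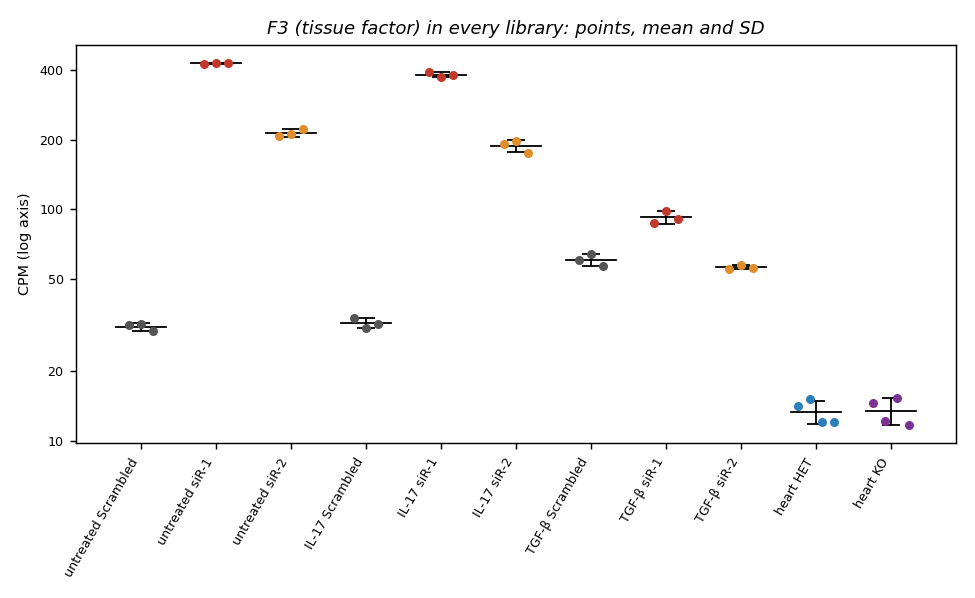
F3 in every library, in CPM on a log axis, with 1 point per library and lines for the group mean and SD (3 libraries per CF group, 4 hearts per genotype). The siR-1 points lie near 427 CPM in untreated and 382 CPM in IL-17-treated cells, against 92.5 CPM under TGF-β, and hearts lie near 13.3 CPM in HET and 13.5 CPM in KO.

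Under TGF-β the F3 differences were small. Scrambled cells were at 60.7, 64.2 and 57.00 CPM, siR-1 cells at 87.4, 98.9 and 91.3 and siR-2 cells at 55.2, 57.3 and 55.9. The siR-1 libraries were all above Scrambled, and the siR-2 range overlapped that of Scrambled. F3 rose by 0.61 ± 0.0509 (SE) on the log2 scale (edgeR, adjusted p = 1.18e-07) with siR-1, a fold of 1.53, close to the threshold. It was not called without TGF-β siR-1 replicate 2, the highest library and 1 of those with hepatocyte markers (0.56), without Scrambled replicate 3 (0.57) or without all libraries with such markers (0.56). With siR-2 the difference was -0.11 ± 0.0510 (SE; edgeR, adjusted p = 0.126), with a 95% interval, not adjusted for the number of genes, of -0.21 to -0.01. The siR-1 effect on F3 was smaller under TGF-β than under IL-17 by 2.95 ± 0.0673 (edgeR interaction, adjusted p = 2.54e-24), and the siR-2 effect by 2.65 ± 0.0674 (adjusted p = 6.04e-23). Each stimulus has its own table, so stimulus and experiment cannot be told apart in this and every comparison across tables.

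In Scrambled cells F3 stood 0.91 ± 0.0479 (SE) higher on the log2 scale under TGF-β than under IL-17 (edgeR, adjusted p = 4.58e-17), short of the 2-fold threshold. Against untreated cells, whose F3 values chose the set, its log2 differences are a description with no test. They were 0.06 for IL-17 and 0.96 for TGF-β in Scrambled cells, the latter 1.00 without TGF-β Scrambled replicate 3. For TGF-β they were -2.21 in siR-1 cells and -1.93 in siR-2 cells.

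F2r, the thrombin receptor PAR1, was higher with both siRNAs in all 3 tables. In untreated cells it stood at 248, 247 and 234 CPM with Scrambled, at 624, 621 and 604 CPM with siR-1 and at 489, 494 and 507 CPM with siR-2, log2 differences of 1.34 and 1.01, given without a test. The siR-2 value was 0.99, under 2-fold, without untreated siR-2 replicate 3 or without Scrambled replicate 3. Under IL-17 it was at 145, 155 and 152 CPM with Scrambled, at 427, 441 and 429.6 CPM with siR-1 and at 355, 360.4 and 345 CPM with siR-2. Under TGF-β it was at 243, 259 and 258 CPM with Scrambled, at 447, 442 and 434 CPM with siR-1 and at 417, 421 and 421 CPM with siR-2. In each table every siRNA library was above every Scrambled library. Under IL-17 F2r rose by 1.51 ± 0.0306 (SE) on the log2 scale (edgeR, adjusted p = 8.01e-16) with siR-1 and by 1.21 ± 0.0304 (edgeR, adjusted p = 3.93e-15) with siR-2. Under TGF-β it rose by 0.80 ± 0.0332 (edgeR, adjusted p = 3.35e-11) with siR-1 and by 0.73 ± 0.0332 (adjusted p = 4.27e-11) with siR-2. The siR-1 effect was smaller under TGF-β by 0.72 (edgeR interaction, adjusted p = 5.86e-14), and the siR-2 effect by 0.50 (adjusted p = 5.97e-11), short of the 1.5-fold threshold. The lower Scrambled level under IL-17 than in untreated cells, -0.69 ± 0.0309 (SE), was short of the 2-fold threshold and is given without a test.

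Tfpi, the inhibitor of the tissue factor complex, had the smallest span of the 9 members over the CF groups and was not called in any comparison. Its mean level spanned 0.62 on the log2 scale over these groups. It stood at 85.8, 90.6 and 86.7 CPM with Scrambled, at 97.3, 96.9 and 101 CPM with siR-1 and at 72.9, 77.01 and 70.9 CPM with siR-2 under IL-17, so that siR-1 cells lay just above Scrambled and siR-2 cells just below. The differences were 0.16 ± 0.0360 (SE; edgeR, adjusted p = 0.00165) and -0.27 ± 0.0362 (SE; edgeR, adjusted p = 5.16e-06). Between siR-2 and siR-1 under IL-17 it was -0.43 (edgeR, adjusted p = 2.52e-08), without overlap. Against Scrambled, the same order held under TGF-β, with 0.17 and -0.12, and in untreated cells, with 0.11 and -0.34. Per kilobase of exon, the ratio of F3 to Tfpi was 0.798 ± 0.0616 (SD, n = 3) with Scrambled, 8.38 ± 0.318 with siR-1 and 5.54 ± 0.174 with siR-2 under IL-17, and 1.30 ± 0.0341, 1.77 ± 0.162 and 1.31 ± 0.0255 under TGF-β. In hearts it was 0.893 ± 0.0732 in HET and 0.844 ± 0.0233 in KO (SD, n = 4).

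Tfpi2, a matrix-bound inhibitor of plasmin and other serine proteases, went in different directions with the 2 siRNAs. Under IL-17 it was at 55.00, 54.7 and 54.4 CPM with Scrambled, at 68.8, 73.1 and 68.6 CPM with siR-1 and at 28.8, 27.8 and 27.2 CPM with siR-2. The siR-1 libraries were all above Scrambled and the siR-2 libraries all below. It fell by 0.99 ± 0.0416 (SE) on the log2 scale (edgeR, adjusted p = 2.11e-12) with siR-2, while the siR-1 difference of 0.35 ± 0.0406 (SE; edgeR, adjusted p = 1.8e-06) did not reach the 1.5-fold threshold. Between siR-2 and siR-1 the difference was -1.34 ± 0.0417 (edgeR, adjusted p = 9.7e-14). Under TGF-β the siR-2 libraries were the highest instead, and Tfpi2 was at 93.3, 97.3 and 87.9 CPM with Scrambled, at 96.2, 101 and 99.5 CPM with siR-1 and at 134, 137 and 136 CPM with siR-2. That siR-2 difference was 0.55 ± 0.0388 (SE; edgeR, adjusted p = 9.66e-09), just under the threshold, and it was called without TGF-β Scrambled replicate 2 (0.59). The siR-2 effect under TGF-β exceeded that under IL-17 by 1.52 ± 0.0548 (edgeR interaction, adjusted p = 9.15e-20). In untreated cells Tfpi2 was at 47.5, 46.97 and 50.1 CPM with Scrambled, at 60.1, 59.2 and 59.98 CPM with siR-1 and at 27.98, 28.7 and 29.99 CPM with siR-2, which is 0.30 and -0.76 on the log2 scale.

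Thbd, thrombomodulin, was lower with siR-1 and higher with siR-2 unless TGF-β was given. In untreated cells it was at 129, 126 and 124 CPM with Scrambled, at 99.7, 95.2 and 98.04 CPM with siR-1 and at 228, 231 and 222 CPM with siR-2, a description only. Cells given IL-17 had it at 154, 134 and 140.1 CPM with Scrambled, at 110.0, 94.7 and 101 CPM with siR-1 and at 227, 214 and 204 CPM with siR-2. The siR-1 range lay below Scrambled and the siR-2 range above it in both tables. Under IL-17 the siR-1 difference of -0.49 ± 0.0633 (SE; edgeR, adjusted p = 7.85e-05) and the siR-2 difference of 0.57 ± 0.0628 (SE; edgeR, adjusted p = 1.55e-05) were short of the 1.5-fold threshold, while siR-2 stood above siR-1 by 1.06 ± 0.0636 (edgeR, adjusted p = 1.14e-07). The siR-2 difference was called without IL-17 siR-2 replicate 3 (0.60), without Scrambled replicate 1 (0.62) and without the libraries with hepatocyte markers (0.67). Under TGF-β Thbd was at 58.1, 64.7 and 64.9 CPM with Scrambled, at 43.2, 43.7 and 42.2 CPM with siR-1 and at 34.3, 32.8 and 35.2 CPM with siR-2, lower with both siRNAs. It fell by 0.88 ± 0.0526 (SE) on the log2 scale (edgeR, adjusted p = 1.27e-09) with siR-2, and the siR-1 difference was -0.54 ± 0.0523 (SE; edgeR, adjusted p = 7.24e-07), which was called without TGF-β Scrambled replicate 1 (-0.59). The siR-2 effect differed between the stimuli by -1.47 ± 0.0712 (edgeR interaction, adjusted p = 1.82e-16), and the siR-1 effect by -0.06 ± 0.0708 (SE; edgeR, adjusted p = 0.683).

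Procr, the receptor that presents protein C to thrombomodulin, was higher with both siRNAs in every table. In untreated cells it was at 31.4, 34.5 and 33.2 CPM with Scrambled, at 41.2, 40.1 and 39.2 CPM with siR-1 and at 53.5, 52.2 and 56.2 CPM with siR-2. With IL-17 it stood at 48.8, 40.5 and 40.7 CPM with Scrambled, at 59.6, 52.5 and 54.8 CPM with siR-1 and at 97.2, 89.7 and 88.8 CPM with siR-2. Under TGF-β it was at 39.9, 41.6 and 39.00 CPM with Scrambled, at 69.5, 73.4 and 73.2 CPM with siR-1 and at 78.96, 78.99 and 79.7 CPM with siR-2. No siRNA library fell within the Scrambled range of its table, and the siR-2 libraries were above those of siR-1 in each. Under IL-17 Procr rose by 1.07 ± 0.0708 (SE) on the log2 scale (edgeR, adjusted p = 4.02e-08) with siR-2, the siR-1 difference was 0.35 ± 0.0708 (SE; edgeR, adjusted p = 0.00135), and siR-2 stood above siR-1 by 0.71 (edgeR, adjusted p = 2.35e-06). Under TGF-β it rose with both, by 0.84 ± 0.0417 (edgeR, adjusted p = 2.24e-10) and 0.98 ± 0.0417 (adjusted p = 2.11e-11). The siR-1 effect differed between the stimuli by 0.48 (edgeR interaction, adjusted p = 1.86e-05), short of the threshold, and the siR-2 effect by -0.10 (adjusted p = 0.366).

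**Figure D3:**
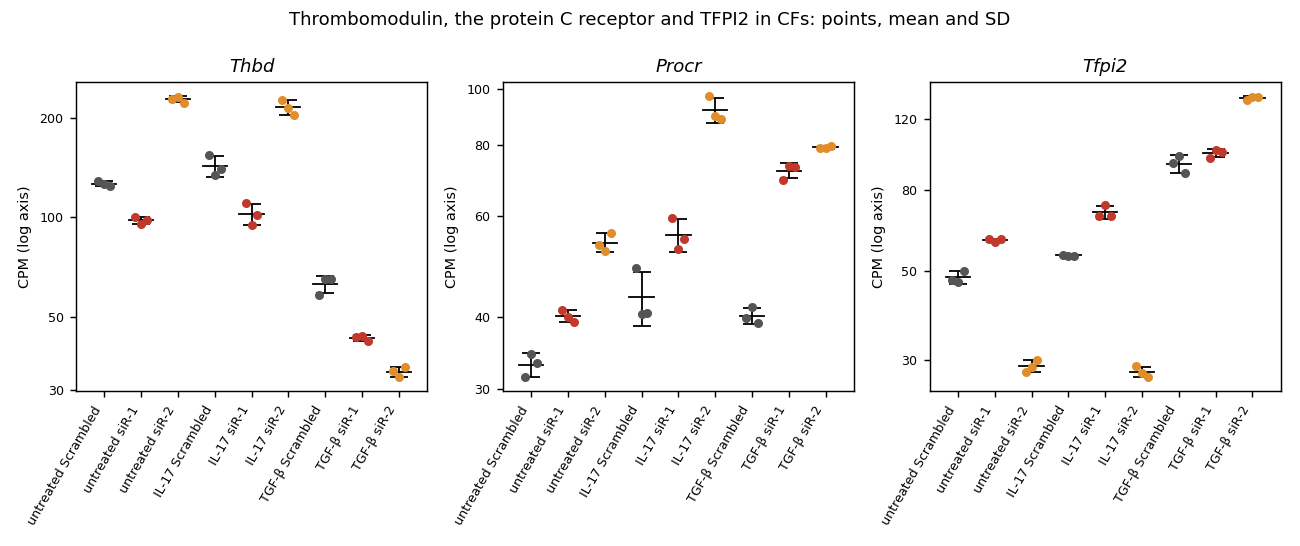
Thbd, Procr and Tfpi2 in every CF library, in CPM on log axes, with 1 point per library and lines for the mean and SD (n = 3). Under IL-17 the siR-2 mean is 215 CPM for Thbd and 27.9 CPM for Tfpi2, and under TGF-β it is 34.1 and 136 CPM.

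Thbd and Procr are also expressed by endothelial and mesothelial cells. The 7 endothelial markers summed to 66.9 to 70.4 CPM with Scrambled, 57.04 to 62.1 (siR-1) and 68.6 to 74.1 (siR-2) under IL-17, and to 121 to 122, 132 to 133 and 122 to 129 under TGF-β. All 7 were above the floor of 18 estimated counts in every CF library. The 6 mesothelial markers summed to 109.8 to 114, 108 to 112 and 69.1 to 73.1 CPM under IL-17, lowest with siR-2. In neither list did the markers move together. From Scrambled to siR-2 under IL-17, Tek went from 13.7 to 23.5 CPM and Emcn from 6.22 to 6.57. Pecam1, Cdh5, Kdr, Tie1 and Egfl7 were lower. Msln went from 6.43 to 9.34 CPM and Wt1 from 0.208 to 0.275, while Upk3b, Upk1b, Krt19 and Lrrn4 were lower. The part of these markers in these results was not tested. In such bulk RNA, fewer cells of a type and less RNA per cell cannot be told apart.

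Plau and Plat, which encode the plasminogen activators uPA and tPA, were lower with both siRNAs in untreated and IL-17-treated cells. Without a stimulus, Plau was at 113, 110.1 and 110.4 CPM with Scrambled, at 46.5, 45.7 and 44.7 CPM with siR-1 and at 30.98, 34.3 and 29.7 CPM with siR-2. With IL-17 it lay at 98.2, 102 and 98.1 CPM with Scrambled, at 41.3, 39.97 and 38.8 CPM with siR-1 and at 29.7, 31.5 and 29.96 CPM with siR-2. Scrambled was the highest and siR-2 the lowest, with no overlap between groups in either table. Under IL-17 Plau fell by 1.32 ± 0.0388 (SE) on the log2 scale (edgeR, adjusted p = 6.37e-14) with siR-1, a 2.50-fold reduction, and by 1.73 ± 0.0394 (edgeR, adjusted p = 1.19e-15) with siR-2, a 3.32-fold reduction. The untreated differences, not tested here, were -1.29 and -1.83.

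Plat showed the same direction with the siRNAs in the other order. Without a stimulus it was at 164, 153 and 161 CPM with Scrambled, at 72.7, 74.1 and 74.05 CPM with siR-1 and at 97.5, 97.9 and 88.6 CPM with siR-2. With IL-17 it was at 142, 141 and 146 CPM with Scrambled, at 64.2, 63.4 and 69.8 CPM with siR-1 and at 86.1, 81.2 and 88.4 CPM with siR-2. In both tables siR-1 cells were the lowest and the groups did not overlap. Under IL-17 Plat fell by 1.13 ± 0.0418 (SE) on the log2 scale (edgeR, adjusted p = 1.14e-12) with siR-1 and by 0.77 ± 0.0413 (edgeR, adjusted p = 5.48e-11) with siR-2. The siRNAs themselves differed by 0.36 ± 0.0417 (SE; edgeR, adjusted p = 1.16e-06) for Plat and by -0.41 ± 0.0391 (SE; edgeR, adjusted p = 1.38e-07) for Plau, both short of the 1.5-fold threshold.

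Under TGF-β both activators were low in every group. Plau was at 11.8, 11.3 and 12.6 CPM with Scrambled, at 8.27, 9.15 and 8.86 CPM with siR-1 and at 9.99, 9.85 and 9.57 CPM with siR-2. Plat was at 24.02, 23.6 and 25.2 CPM with Scrambled, at 23.7, 25.3 and 23.3 CPM with siR-1 and at 29.6, 25.9 and 27.3 CPM with siR-2. For Plau the siRNA libraries all lay below Scrambled, and for Plat siR-1 overlapped Scrambled and siR-2 lay above it. The Plau differences of -0.44 ± 0.0772 (SE; edgeR, adjusted p = 0.000377) and -0.28 ± 0.0770 (SE; edgeR, adjusted p = 0.01) and the Plat differences of -0.01 ± 0.0610 (SE; edgeR, adjusted p = 0.934) and 0.19 ± 0.0609 (SE; edgeR, adjusted p = 0.029) were not called. The siR-1 effect was less negative than under IL-17 by 0.87 ± 0.0723 for Plau (edgeR interaction, adjusted p = 7.01e-11) and by 1.11 ± 0.0677 for Plat (adjusted p = 7.87e-14). For siR-2 these were 1.43 ± 0.0724 (adjusted p = 2.46e-16) and 0.93 ± 0.0675 (adjusted p = 1.04e-12). Over the 9 members, the siR-1 effect differed upwards between the stimuli in 2 (Plat and Plau) and downwards in 2 (F3 and F2r), where 4.32% and 2.39% of all genes did. The siR-2 effect differed upwards in 3 (Plat, Plau and Tfpi2) and downwards in 2 (F3 and Thbd), against 7.33% and 4.8% of all genes.

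**Figure D4:**
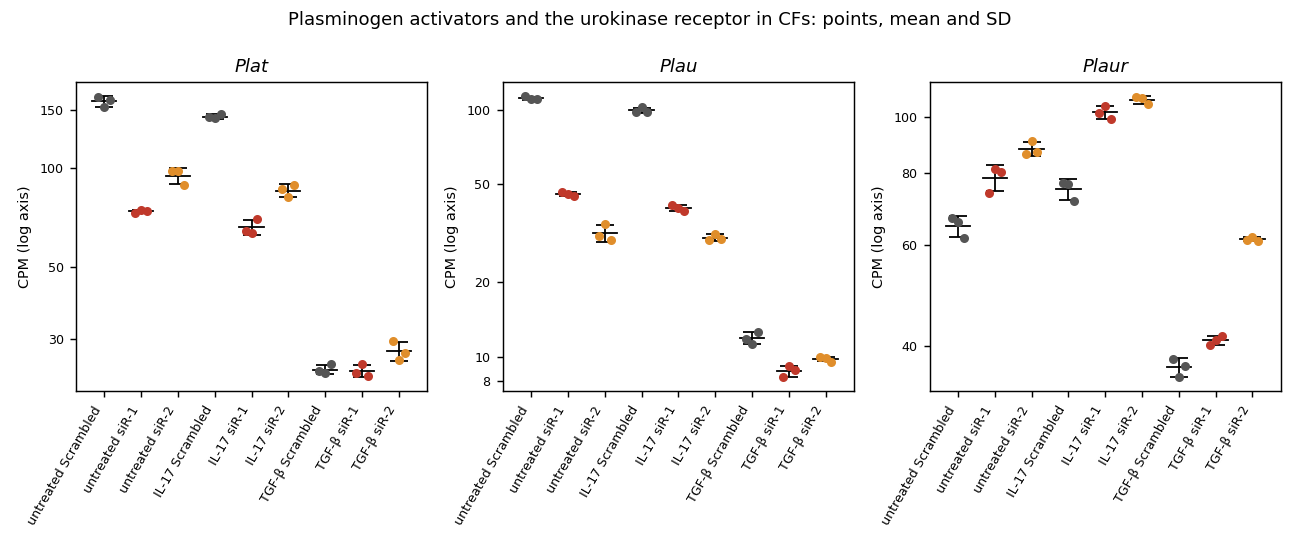
Plat, Plau and Plaur in every CF library, in CPM on log axes, with 1 point per library and lines for the mean and SD (n = 3). Scrambled means of Plat and Plau are 143 and 99.5 CPM under IL-17 and 24.3 and 11.9 CPM under TGF-β.

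Plaur, the surface receptor of uPA, was higher with both siRNAs. In the IL-17 table it was at 76.7, 76.6 and 71.3 CPM with Scrambled, at 102, 104 and 99.4 CPM with siR-1 and at 108, 108 and 105 CPM with siR-2. Under TGF-β it was at 37.9, 35.2 and 36.9 CPM with Scrambled, at 40.1, 40.9 and 41.5 CPM with siR-1 and at 61.1, 61.9 and 60.8 CPM with siR-2. Every siRNA library was above every Scrambled library in both. Under IL-17 the differences of 0.43 ± 0.0347 (SE; edgeR, adjusted p = 1.86e-08) and 0.50 ± 0.0347 (SE; edgeR, adjusted p = 1.69e-09) did not reach 1.5-fold. Under TGF-β Plaur rose by 0.74 ± 0.0457 (SE) on the log2 scale (edgeR, adjusted p = 1.76e-09) with siR-2, and the siR-1 difference was 0.16 ± 0.0457 (SE; edgeR, adjusted p = 0.0188). Between siR-2 and siR-1 it was 0.59 (edgeR, adjusted p = 8.85e-08), at the threshold itself, and it was called in only 6 of 15 alternatives. Those that lost it include DESeq2 (0.58) and leaving out TGF-β siR-2 replicate 2 (0.58) or siR-1 replicate 1 (0.57). In untreated cells it stood at 66.6, 65.8 and 61.5 CPM with Scrambled, at 73.8, 81.3 and 80.2 CPM with siR-1 and at 86.4, 90.9 and 87.02 CPM with siR-2. Macrophages also express Plaur, and the 7 macrophage markers summed to 56.4 to 57.3 CPM with Scrambled, 65.00 to 70.5 (siR-1) and 77.4 to 85.99 (siR-2) under IL-17, the same order as Plaur and without overlap. Under TGF-β they summed to 159.7 to 168, 129 to 145 and 144 to 151 CPM, highest with Scrambled. Under IL-17 Lyz2 and Csf1r made up most of the sum. They were at 37.5 and 9.41 CPM with Scrambled, 41.6 and 15.02 (siR-1) and 47.8 and 20.7 (siR-2). Cd68 and Itgam had the same order. Adgre1 (0.932, 0.775 and 1.01 CPM) and Cd14 (2.15, 1.99 and 2.94 CPM) were lowest with siR-1, and Ptprc was highest with siR-1. The part of these markers in the Plaur values was not tested. Per kilobase, the ratio of Plau to Plaur was 1.47 ± 0.0536 with Scrambled, 0.434 ± 0.0128 with siR-1 and 0.314 ± 0.0101 with siR-2 under IL-17 (SD, n = 3).

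Across stimuli in Scrambled cells, TGF-β went with far lower plasminogen activators. The untreated libraries are those of the comparison that chose the set, so differences from them are a description with no test. Plau was lower than in untreated cells by 3.22 ± 0.0540 (SE) on the log2 scale, a fold of 9.34, and Plat by 2.71 ± 0.0501, a fold of 6.55. Thbd was lower by 1.01 ± 0.0503, which was -0.97 and short of the 2-fold threshold without TGF-β Scrambled replicate 1. With these, 3 of the 9 members were past the threshold downwards and 0 upwards, where 9.14% of all genes were lower and 11.7% higher. Against IL-17, in tables other than the untreated one whose values chose the set, the same 3 genes and Plaur were lower. Plau was lower by 3.06 (edgeR, adjusted p = 1.48e-29), Plat by 2.56 (adjusted p = 1.9e-28), Thbd by 1.19 (adjusted p = 2.3e-19) and Plaur by 1.03 (adjusted p = 1.58e-20). That was 4 lower and 0 higher, with 9.85% and 11.6% of all genes. Tfpi2 was higher under TGF-β than IL-17 by 0.76 (edgeR, adjusted p = 9.65e-18), short of 2-fold.

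In siR-1 and siR-2 cells the untreated libraries are also those whose F3 values chose the set, so TGF-β against untreated is likewise given as a description. In siR-1 cells 4 members (F3, Thbd, Plat and Plau) were past the threshold downwards and 0 upwards, with 8.04% and 11.9% of all genes. In siR-2 cells it was these 4 and, upwards, Tfpi2 (8.06% and 12%), with log2 differences of -2.74 for Thbd and 2.23 for Tfpi2. IL-17 against untreated gave 0 of 9 called with any siRNA by edgeR or DESeq2, where 1.46%, 1.83% and 1.65% of all genes were called with Scrambled, siR-1 and siR-2. An unadjusted p under 0.05 (edgeR) was seen in 8, 7 and 5 members, and in 22%, 24% and 21.9% of all genes. These counts use the untreated libraries that chose the set and are a description. The largest log2 difference of a member was that of Procr in siR-2 cells, 0.77. In Scrambled cells the summed levels were 70.4 to 76.5 CPM untreated and 121 to 122 CPM under TGF-β for the endothelial list, 56.3 to 60.3 and 159.7 to 168 for 7 macrophage markers and 141 to 157 and 41.3 to 47.4 for the mesothelial list. For the cardiomyocyte list, mostly Tnnt2, they were 90.2 to 97.99 and 5.29 to 5.97. Against their lists, endothelial Kdr went from 6.18 to 2.23 CPM and mesothelial Wt1 from 0.271 to 1.49 CPM. The part of all these markers in these results was not tested.

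Beyond the 9 members, a list of 43 other coagulation and fibrinolysis genes was tested in the same fits. Under IL-17, 26 of them passed the filter on low counts, 2 rose and 1 fell with siR-1, with a median log2 difference of -0.05 against 0.00 for all genes, and 1 rose and 4 fell with siR-2, with -0.43 against -0.02. Of all genes, 5.58% rose and 7.97% fell with siR-1, and 8.06% rose and 13.7% fell with siR-2. Under TGF-β 26 passed, with 1 higher and 1 lower for siR-1 and 1 and 0 for siR-2, and medians of 0.07 and 0.05 against 0.00 and 0.01. In each IL-17 comparison 1 gene was at 0 in a group, and the medians were the same with it at its bound. It was Fga with siR-1 and Kng1 with siR-2, against means of 2.45 and 1.65 CPM in Scrambled cells. Of the list, the 8 coagulation factors tested under IL-17 had medians of -0.34 (siR-1) and -1.34 (siR-2), with 0 positive. IL-17 Scrambled replicates 1 and 3 held hepatocyte markers, and the medians were not taken without them. In untreated cells 24 passed, with 0 higher and 2 lower for siR-1 and 1 and 4 for siR-2, which without the library with hepatocyte markers were 1 and 0 (Kng2) and 1 and 2. The gene that rose in all 4 was Serpinb2, which encodes PAI-2, an inhibitor of the plasminogen activators. Under IL-17 its libraries were at 11.6, 9.91 and 11.5 CPM with Scrambled, at 63.6, 57.4 and 63.5 CPM with siR-1 and at 184, 181 and 178 CPM with siR-2, without overlap. It rose by 2.47 ± 0.0545 (edgeR, adjusted p = 2.04e-15) and 4.02 ± 0.0565 (adjusted p = 8.84e-18). Under TGF-β it was near the lower end of detection, at 0.392 ± 0.0554, 1.25 ± 0.153 and 1.28 ± 0.480 CPM (mean ± SD, n = 3), with rises of 1.67 (edgeR, adjusted p = 0.000473) and 1.70 (adjusted p = 0.000281).

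Other called genes of the list are named after their values were seen. With siR-2 under IL-17 these were F8, the cofactor factor VIII (-1.95), F13a1, the A chain of the fibrin cross-linking factor XIII (-1.49), Serpind1, the thrombin inhibitor heparin cofactor II (-1.41), and A2m, a broad protease inhibitor (-1.11). With siR-1 they included Serpinc1, antithrombin (-4.17), under IL-17 and Serpina5, the protein C inhibitor (-1.18), under TGF-β. Some of these rest on few estimated counts, against the floor of 18. With siR-2 under IL-17, A2m was at 30, 25 and 17 and F13a1 at 41, 40 and 41. With siR-1, Serpinc1 was at 0, 27 and 5 under IL-17 and Serpina5 at 25, 23 and 59 under TGF-β.

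Serpinc1 and Serpind1 are made in liver, and the hepatocyte marker sums moved with Serpinc1. In IL-17 Scrambled cells Serpinc1 was at 3.10, 0.308 and 1.86 CPM in replicates 1, 2 and 3, whose hepatocyte markers summed to 85.3, 0.899 and 56.1 CPM. In siR-1 cells it was at 0, 0.246 and 0.0452 CPM. Without the libraries with such markers its siR-1 difference was -1.66 (edgeR, adjusted p = 0.347). The list then held 4 called higher and 0 lower with siR-1 under IL-17, Lrp1 and F2rl1 being added, and 1 higher and 3 lower with siR-2, A2m being lost. Under TGF-β it then held 1 higher and 0 lower with siR-1, Serpina5 being lost.

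Levels per kilobase of exon allow different genes to be set side by side. In untreated and IL-17-treated cells F3 was last with Scrambled and first or second with the siRNAs. In untreated Scrambled cells F2r was first at 72.8 ± 2.22 CPM per kb (SD, n = 3), then Plau at 47.01, Thbd at 33.9, Tfpi2 at 27.6, Plat at 25.5, Plaur at 24.7, Tfpi at 17.3, Procr at 16.3 and F3 at 12.3 ± 0.449. Plat and Plaur overlapped in their libraries, as did Tfpi and Procr, and F3 lay below all others. In untreated siRNA cells F3 was second to F2r, at 169 against 185 CPM per kb with siR-1 and 84.7 against 149 with siR-2. Under IL-17 the order with Scrambled again began with F2r (45.2) and ended with F3 (12.8). With siR-1 it began with F3 at 151 ± 3.83, ahead of F2r at 129.6 ± 2.17, and with siR-2 F3 was second at 74.7 ± 4.63, behind F2r at 106 ± 2.34. Plat was last with siR-1, at 10.5, and Plat, Tfpi and Plau shared the end with siR-2, at 13.7, 13.5 and 12.8, neighbours that overlapped. Under TGF-β F2r and Tfpi2 led in all 3 groups, with 75.9 and 53.1 in Scrambled cells where F3 came next at 24.00, and Plau and Plat were last, at 5.03 and 3.89.

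**Figure D5:**
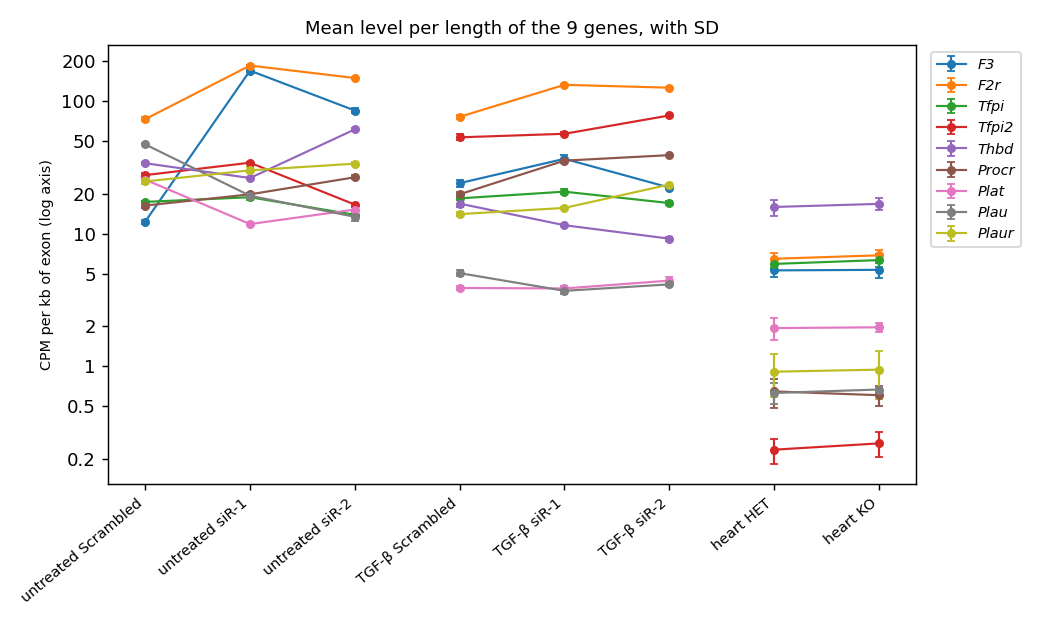
Mean CPM per kilobase of exon of the 9 genes, on a log axis with bars of 1 SD, in untreated and TGF-β-treated CFs (3 libraries per group) and in hearts (4 per genotype), with lines that only join the points of a gene. F3 lies at 12.3 in untreated Scrambled cells and at 169 with siR-1, and Thbd leads in hearts at 15.9 in HET.

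In hearts, none of the 9 members was called between KO and HET. F3 was at 14.1, 15.1, 12.1 and 12.01 CPM in the 4 HET hearts and at 14.6, 12.2, 15.4 and 11.8 in the 4 KO hearts, which overlapped throughout. The difference was 0.01 ± 0.109 (SE; edgeR, adjusted p = 1), with a 95% interval of -0.20 to 0.23. This interval is for RNA of the whole uninjured heart against HET and does not bound a change in its fibroblasts alone. Thbd was at 54.8, 51.7, 59.6 and 70.3 CPM in HET and at 58.6, 71.3, 56.6 and 62.7 in KO, a difference of 0.08 ± 0.102 (SE; edgeR, adjusted p = 1). The other 7 had log2 differences between -0.09 (Procr) and 0.16 (Tfpi2), all with adjusted p = 1 in edgeR. By edgeR 0 of the 9 members were called, 0 at an unadjusted p under 0.05 and 0 by DESeq2, which called 2 genes in all, where edgeR called 0% of 16675 genes and 3.6% had an unadjusted p under 0.05. Groups overlapped for all 9, against 1.19% of all genes with KO above HET and 1.18% with KO below. Of the list of 43, 16 were tested and 0 called, with a median log2 difference of -0.03 against 0.00 for all genes.

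The order of levels in hearts was unlike that in CFs. Per kilobase, Thbd was highest in HET and KO at 15.9 ± 2.19 and 16.7 ± 1.75 CPM per kb (SD, n = 4), above F2r at 6.46 and 6.85, Tfpi at 5.91 and 6.31 and F3 at 5.28 and 5.33, of which neighbours overlapped. Plat followed at 1.94 and 1.97, then Plaur, Procr and Plau, which overlapped, and Tfpi2 was last at 0.235 and 0.262. Plau was at 1.31 to 1.88 CPM in HET and 1.48 to 1.65 in KO, Plaur at 1.63 to 3.56 and 1.52 to 3.32, and Procr at 1.08 to 1.78 and 0.999 to 1.52. The 7 endothelial markers summed to 608 to 701 CPM in HET and 626 to 666 in KO, and the 6 cardiomyocyte markers, all present, to 39200.5 to 42857 CPM. Hearts are a mix of cells, so these levels are not compared with those of CFs by a test.

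Among the 5 genes whose mean log2 CPM over the 9 CF groups was most like that of F3, of 13330 genes with at least 1 CPM on average, were Nedd4, a ubiquitin ligase (Pearson r = 0.988), the keratin Krt80 (0.984), Lgmn, the lysosomal protease legumain (0.972), and Dennd5a, an activator of Rab proteins (0.968). Their levels spanned 0.47 (Dennd5a) to 1.5 (Krt80) on the log2 scale over these groups, against 3.76 for F3. These are descriptions over 9 points that share control libraries, with no test.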

How the data were processed

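RNA-Seq of 27 CF libraries and 8 hearts was analysed. The tools named in the submitters' processing notes are cutadapt, HISAT2, StringTie and DESeq2, with build GRCm38. The authors deposited estimated counts per gene for CFs, which were used as whole numbers, and raw counts per gene for hearts. In CF tables the most frequent value of genes seen in 1 library was 6, so the floor of 3 read pairs was set at 18, and at 3 in hearts. How these estimated counts were made whole, the annotation release and the use of strand are not given in the sources used here.

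Each table was normalised by TMM and fitted with edgeR 4.0.16 (quasi-likelihood test, Benjamini-Hochberg adjustment over all genes passing filterByExpr) in R 4.3.3. Comparisons of stimuli and of siRNA effects between stimuli used 1 fit of all 27 CF libraries. DESeq2 1.42.0, other filters, normalisations and fold thresholds, and leaving out libraries were alternatives. The code was tested on simulated data. CPM used total counts multiplied by TMM factors, set over the 27 CF libraries together and over the hearts on their own. Levels between genes were divided by exon length.

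The members and the gene and marker lists were chosen with earlier results of these data known. All 9 members are named, with the genes of the pathway list called in both siRNA comparisons of a table and any count of 5 or fewer, and the genes with the pattern most like F3. Some genes these rules would name are not reported here.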

Additional observations from a re-analysis of the deposited data

Results flagged for a closer look

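The siRNA effect differed between TGF-β and IL-17 by the test of the difference itself (edgeR interaction, in the fit of 27 libraries) in 9 cases, each given as the effect under TGF-β minus that under IL-17 on the log2 scale. For siR-1 this was -2.95 for F3, -0.72 for F2r, 1.11 for Plat and 0.87 for Plau. For siR-2 it was -2.65 for F3, 1.52 for Tfpi2, -1.47 for Thbd, 0.93 for Plat and 1.43 for Plau. The fall of the targeted RNA was also smaller under TGF-β, by 0.61 (siR-1) and 0.77 (siR-2). Stimulus and table cannot be told apart.

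In the 4 HET hearts, 1 library stood apart for Tfpi2, at 0.280 CPM against 0.435 to 0.466 CPM. The gap to its neighbour was 0.831 of the range, just above Dixon's 95% critical value. It rests on 7 to 11 counts per heart, and chance gives such a library in about 1 of 20 groups.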

How the results depend on the processing

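Of the counts of members called, 140 stayed within 1.5 times under the alternatives and 16 moved, and with 1 library left out 120 stayed and 2 moved. Of the values of single members, 1358 kept direction and call, 16 passed the threshold, 23 no longer did and 6 reversed, and with 1 library left out these were 1061, 5, 7 and 25. F3 kept its call in 20 of 20 alternatives for both differences between stimuli, from -3.06 to -2.89 for siR-1 and from -2.71 to -2.59 for siR-2.

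Most counts that moved did so with the fold threshold. At 1.5-fold, 7 members were called in untreated siR-2 cells, 1 and 1 for IL-17 against untreated in Scrambled and siR-2 cells, 6 and 7 for TGF-β against untreated in Scrambled and siR-1 cells, and 7 for TGF-β against IL-17. At 2-fold, 0 and 0 were called for siR-1 and siR-2 under TGF-β, 0 between these siRNAs, and 2 for the siR-1 difference between stimuli. Between siR-2 and siR-1 under TGF-β, 1 was called with DESeq2, RLE size factors, no filter, at least 10 counts, counts divided by their most frequent value and only the 2 groups, and 1 to 2 with 1 library left out.

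No reversed value was called. The siR-1 difference between stimuli for Tfpi was 0.00524 with DESeq2 and RLE, 0.0195 with at least 10 counts, 0.0111 with counts divided, 0.0702 without the libraries with hepatocyte markers, and -0.0330 to 0.0385 with 1 library left out. F3 in Scrambled cells, IL-17 against untreated, was -0.0458 without the libraries with hepatocyte markers. With 1 library left out, Plat with siR-1 under TGF-β ranged from -0.0494 to 0.0165, Plau in siR-2 cells for IL-17 against untreated from -0.0941 to 0.00378, and the siR-1 difference between stimuli for Thbd from -0.108 to 0.00373. In hearts F3 ranged from -0.0557 to 0.0818, Plat from -0.0685 to 0.134, Plaur from -0.130 to 0.308 and Procr from -0.210 to 0.0892. The cause was not tested.

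Libraries of the same number showed no sign of deviating together (correlations from -0.167 to 0.0563, with 0 of 9 pairs over 0.1 in each table). Libraries of unlike number reached 0.211 under TGF-β. With 3 libraries per group this cannot exclude that the numbers pair them. With the replicate block, as many members were called in every CF comparison as without it, 4 with siR-1 and 6 with siR-2 under IL-17 and 3 and 4 under TGF-β. In hearts no paired analysis was possible because the heart columns carry no replicate number. Leaving out the 5 libraries with hepatocyte markers was chosen after seeing the data. Tfpi2, at 7 to 13 counts per heart, had a 95% interval of -0.36 to 0.67, so depth limits what could be detected there.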
